A study of Mus musculus with 22 samples.

Results

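B cells lying in kidney tissue were compared with B cells in the kidney's vessels in PBS-treated mice, by the way their immunoglobulin heavy chain (Igh) genes were joined. Every sequence in the tables of the 6 PBS mice was included, with both sorted fractions of each mouse, which gave 10947 of the 17178 sequences and 12 of the 22 libraries of the series. The mice were female wild-type C57BL/6, 8 to 10 weeks old, and had PBS instilled into the bladder 2 times, while the mice not described here received uropathogenic bacteria by the same route. Kidneys were taken at day 56. Labelled anti-CD45 antibody was given intravenously shortly before death and the organs were not perfused, so live B cells that had taken up the label were sorted as intravascular and the remainder as extravascular. PBS mice were catheterised too, so they stand for instilled and uninfected mice and not for untouched ones. The tables hold Igh sequences and no expression of other genes, so the sorted cell type was not checked against markers.

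An Igh gene is assembled when a V, a D and a J segment are cut and joined. The enzyme terminal transferase can add nucleotides without a template at each joint, called N1 between V and D and N2 between D and J. The stretch over the joints, from the conserved cysteine of V to the conserved tryptophan of J, is the JUNCTION, and its inner part is CDR3, the most variable loop of the antibody and often its main contact with antigen. B-1 cells of the body cavities and tissues arise to a large extent early in life, when little terminal transferase is made, and their repertoires are known for junctions with few N nucleotides and for V segments such as Ighv11-2 and Ighv12-3 joined to Ighj1, which bind phosphatidylcholine. Circulating B cells in vessels are mostly follicular B-2 cells with diverse junctions.

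Each line of a table is a retained sequence supported by at least 2 reads, and some lines of a library share the same V-D-J nucleotides. Sequences of a library with the same JUNCTION nucleotides, V segment and J segment were taken as a clonotype. Shares are given by sequence, where every line counts, and by clonotype, where each clonotype of a library counts 1 time. Extravascular libraries held 750 to 2134 sequences from 6271 to 18956 reads, and intravascular libraries held 344 to 611 sequences from 1881 to 4385 reads. Numbers of clonotypes were alike, 242 to 374 and 260 to 392. Between 27.5% and 61.2% of the clonotypes of an extravascular library had a JUNCTION 1 nucleotide away from that of a clonotype with more reads and the same V and J, against 0.885% to 12.4% in intravascular libraries. After merging of such clonotypes, extravascular libraries held 126 to 235 clonotypes and intravascular ones 234 to 369. The values tested by clonotype were therefore also computed with such clonotypes merged, and untested ones only where stated. The intravascular library of mouse 6 stood apart from the other 5, with a single clonotype that made up 37.3% of its sequences. In these bulk libraries, more cells of a clonotype and more Igh RNA per cell cannot be told apart. The labels pair both libraries of a mouse by its number, and differences are given as extravascular minus intravascular within a mouse.

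The largest clonotype of each extravascular library, and that of the intravascular library of mouse 6, are shown because the rank sizes and the J and D shares turn on them. Lower case marks nucleotides assigned to the V, D and J segments or to palindromic ends, and capitals mark N nucleotides, read 5′ to 3′.
Extravascular mouse 1, Ighv3-3/Ighd2-5/Ighj2: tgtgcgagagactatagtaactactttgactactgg
Extravascular mouse 2, Ighv3-8/Ighd2-3/Ighj2: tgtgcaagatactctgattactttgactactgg
Extravascular mouse 3, Ighv3-1/Ighd6-3/Ighj2: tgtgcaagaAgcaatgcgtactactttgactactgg
Extravascular mouse 4, Ighv12-3/Ighd2-10/Ighj1: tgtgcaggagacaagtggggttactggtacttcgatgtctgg
Extravascular mouse 5, Ighv3-8/Ighd2-13/Ighj1: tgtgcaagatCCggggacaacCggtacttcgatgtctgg
Extravascular mouse 6, Ighv3-1/Ighd4-1/Ighj2: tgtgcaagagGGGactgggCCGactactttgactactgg
Intravascular mouse 6, Ighv3-1/Ighd2-5/Ighj3: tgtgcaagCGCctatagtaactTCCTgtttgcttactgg

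The extravascular clonotypes of mice 1, 2 and 4 held no N nucleotide, that of mouse 3 held 1, and those of mice 5 and 6 held 3 and 6. The intravascular clonotype of mouse 6 held 7. Of these 6 extravascular clonotypes, only that of mouse 1 was also present in the intravascular library of its mouse, where it had 4 sequences against 431. The next largest extravascular clonotypes over all mice, of 374 and 373 sequences, were an Ighv3-1/Ighd1-1/Ighj4 clonotype of mouse 1 without N nucleotides and the largest of mouse 3. Among the 10 largest clonotypes of each library, 6 of 60 extravascular and 0 of 60 intravascular ones were found in the other compartment of the same mouse.

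The combined share of the clonotypes ranked 2 to 10 separated the compartments without overlap, although at single ranks from 7 to 10 the libraries overlapped. A small set of clonotypes filled most of each extravascular library, whereas clonotypes of a single sequence held the larger part of intravascular sequences in 5 of 6 mice, the exception being mouse 6. By number, clonotypes of a single sequence were 1586 of 1880 extravascularly and 1580 of 1911 intravascularly. After merging of clonotypes 1 nucleotide apart they were no longer alike in number, 868 of 1137 and 1494 of 1827. Clonotypes of 20 or more sequences numbered 67 in extravascular libraries, 5 to 16 per mouse, and 2 in intravascular libraries, in mice 1 and 6. They held 56.3% to 78.9% of extravascular sequences, with a median of 64.5%. In intravascular libraries they held 4.83% in mouse 1, 37.3% in mouse 6 and 0 in the other 4. The groups did not overlap, and the difference was 59.7 ± 17.8 percentage points (SD of the 6 paired differences, higher extravascularly in 6 of 6 mice, exact two-sided signed-rank p = 0.03125). That p is the smallest that 6 mice can give. After Benjamini-Hochberg adjustment over the 36 signed-rank tests made here it was 0.1875, as for each of the other 5 results at this minimum, so that no signed-rank result passed the adjusted threshold. A class set at a fixed number of sequences moves with depth, which was greater in every extravascular library.

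The ranked share and the count at an equal number of sequences gave the same order, without matching the number of reads. Clonotypes ranked 2 to 10 held 38.1% to 54.0% of extravascular sequences and 7.23% to 14.4% of intravascular ones, again without overlap, a difference of 33.1 ± 6.91 percentage points (exact signed-rank p = 0.03125, higher in 6 of 6 mice). Clonotypes of a single sequence, a class that also moves with depth, held 13.2% to 28.0% of extravascular and 36.3% to 72.6% of intravascular sequences, a difference of -34.9 ± 12.1 percentage points (exact signed-rank p = 0.03125, lower in 6 of 6 mice). When every library was brought to the 344 sequences of the smallest by the hypergeometric expectation, 73.8 to 126.9 unique clonotypes were expected extravascularly and 164.5 to 296.9 intravascularly (difference -137.9 ± 48.9, exact signed-rank p = 0.03125, lower in 6 of 6 mice). Without mouse 6 these 4 differences were 66.4, 33.1, -38.9 and -156, in the order given, and 5 mice cannot give a p below 0.0625.

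The share of the very largest clonotype did not separate the compartments. It was 7.23% to 24.5% extravascularly, with a median of 21.0%, and 1.25% to 4.83% intravascularly in mice 1 to 5. The clonotype of intravascular mouse 6 lay above all of them at 37.3% (95% Wilson interval 33.6% to 41.2%, which covers counting error only). Paired values differed by 9.10 ± 19.7 percentage points (exact signed-rank p = 0.4375, higher in 5 of 6 mice), and 16.9 points without mouse 6. The probability that 2 sequences drawn from a library belong to the same clonotype went the same way, 3.32% to 9.84% extravascularly against 0.101% to 0.492% in intravascular mice 1 to 5 and 14.1% in mouse 6 (exact signed-rank p = 0.4375).

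**Figure D1:**
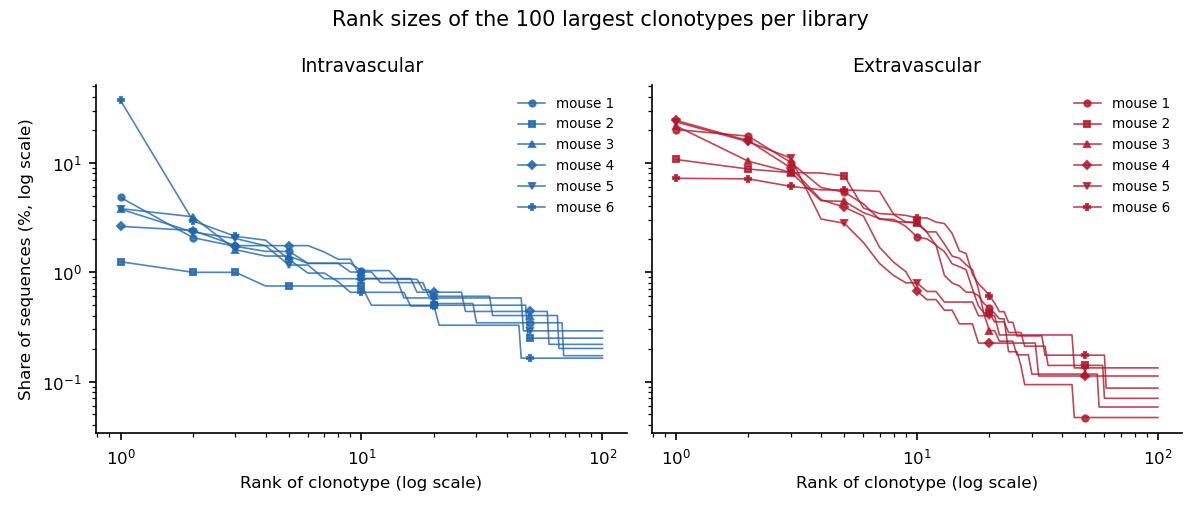
Share of a library's sequences (percent, log scale) held by each clonotype against its rank (log scale), for the 100 largest clonotypes of each of 6 intravascular (left) and 6 extravascular (right) PBS libraries. At rank 10 the extravascular mean was 2.07% and the intravascular mean 0.865%; the intravascular curve that starts at 37.3% is mouse 6.

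The 67 large extravascular clonotypes spanned 13 V segments and all 4 J segments. Of the 67 with 20 or more sequences, 18 carried Ighv12-3, 17 carried Ighv3-8, 16 carried Ighv3-1 and 5 carried Ighv11-2. Among the 60 clonotypes ranked 1 to 10 in each compartment, Ighv12-3 was in 17 extravascularly and 2 intravascularly, Ighv3-8 in 13 and 31, and Ighv3-1 in 13 and 18. By J segment, 26 carried Ighj1, 19 Ighj2, 13 Ighj4 and 9 Ighj3. Clonotypes without any N nucleotide made up 18 of the 66 large extravascular clonotypes with an assigned D (27.3%), 32 of 215 of intermediate size (14.9%) and 138 of 1545 of a single sequence (8.93%). In intravascular libraries the corresponding counts were 0 of 2, 30 of 321 (9.35%) and 90 of 1539 (5.85%). These counts by size were not repeated with clonotypes 1 nucleotide apart merged. The extravascular order by size was present in mice 1, 2 and 4 and not throughout in mice 3, 5 and 6, and mouse 1 gave 7 of the 18 large clonotypes without N.

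Ighj3 was the J segment whose share was lower extravascularly in 6 of 6 mice, without passing the adjusted threshold. The 4 J segments lie side by side between the D segments and the constant region genes of the Igh locus on the minus strand of chromosome 12, Ighj3 at chr12:113429085-113429132 (GRCm38, GENCODE vM21). By sequence, the Ighj3 share in mice 1 to 6 was 1.4995%, 6.95%, 10.9%, 4.49%, 6.40% and 25.9% extravascularly and 18.3%, 18.2%, 18.7%, 26.3%, 16.9% and 52.0% intravascularly. Each extravascular library lay below the intravascular library of its mouse, although the groups overlapped because mouse 6 was highest in both. The means were 9.36% ± 8.66 and 25.1% ± 13.6 (SD, n = 6), which left -15.7 ± 7.19 percentage points between them (exact two-sided signed-rank p = 0.03125, adjusted 0.1875). With the largest clonotype of each library left out the difference was -9.86 points and p was 0.0625 (exact).

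By clonotype, the Ighj3 share was 13.5% ± 6.13 extravascularly and 21.8% ± 3.39 intravascularly, a difference of -8.31 ± 5.19 percentage points (exact signed-rank p = 0.03125, lower in 6 of 6 mice). It depended on clonotypes that differ by 1 nucleotide. With those merged, a step added after the data had been seen, the difference was -2.70 points (exact p = 0.3125).

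The other J segments showed no difference past the threshold, even before adjustment. Ighj1 ranged from 11.0% to 45.6% extravascularly (median 39.0%) and from 13.6% to 26.7% intravascularly (median 21.9%), a difference of 11.95 ± 11.96 points that was positive in 4 of 6 mice (exact signed-rank p = 0.15625). The mean difference turned to -2.89 points when Ighv11-2 and Ighv12-3, which pair mainly with Ighj1, were left out. Ighj2 ranged from 11.5% to 59.7% extravascularly and from 19.6% to 37.4% intravascularly (difference 3.09 ± 16.9, exact p = 1). Ighj4 made up 24.8% ± 11.6 and 24.2% ± 5.12 (difference 0.65 ± 12.5, exact p = 1). For these 3 segments the extravascular SD was 2 or more times the intravascular SD, by sequence and by clonotype.

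**Figure D2:**
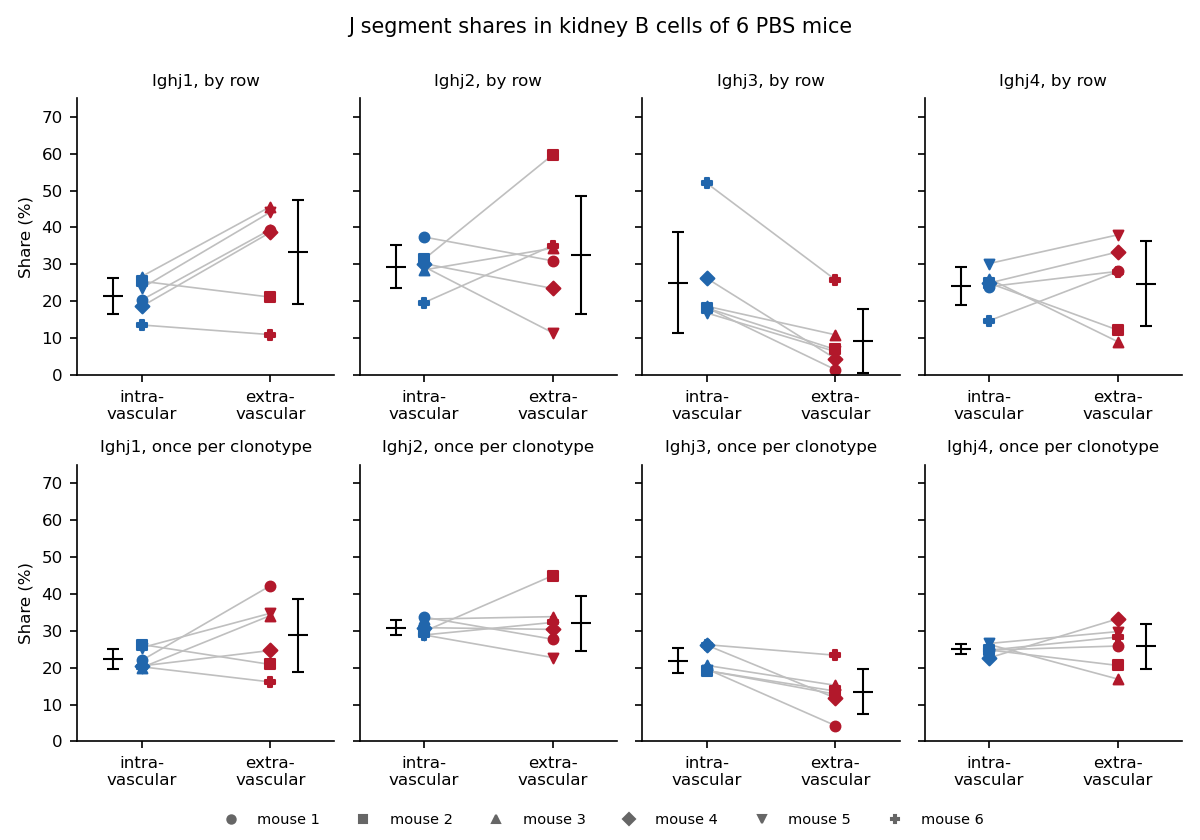
Share of each J segment (percent) in the 6 intravascular (blue) and 6 extravascular (red) PBS libraries, by sequence (top, labelled by row) and by clonotype (bottom). Grey lines join the libraries of a mouse, and black bars are the mean and SD, drawn down to 0 where they would pass it; only the Ighj3 panels show 6 of 6 lines falling, with mean differences of -15.7 and -8.31 percentage points.

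The V-J pair that passed the test in both ways of counting was Ighv3-1/Ighj3, lower extravascularly. Among V-J pairs with at least 10 sequences in at least 3 libraries, limma called 1 of 15 (6.67%) by sequence, this pair, with 5 at an unadjusted p under 0.05. The exact signed-rank test per pair called 0 after adjustment. Its smallest p with 6 mice is 0.03125, so it could call a pair only if most pairs tested reached that p. Ighv3-1/Ighj3 made up 0.0469%, 3.16%, 0, 0.112%, 0.133% and 4.97% of sequences in extravascular mice 1 to 6, and 5.34%, 6.98%, 7.83%, 5.47%, 5.81% and 43.9% in intravascular mice 1 to 6. The groups did not overlap, and the 0 of 1710 sequences in extravascular mouse 3 allows a share of up to 0.175%. The log2 difference was -4.53 (SE 1.06, limma with mouse as a block, Benjamini-Hochberg adjusted p = 0.00648). By clonotype the pair made up 1.17% ± 1.74 extravascularly and 6.61% ± 3.62 intravascularly, with a log2 difference of -3.06 (SE 0.529, limma adjusted p = 0.0110, lower in 6 of 6 mice). It was called as well with clonotypes 1 nucleotide apart merged (-2.70, limma adjusted p = 0.00752), and not without mouse 4 (-3.05, limma adjusted p = 0.0533). It reached the filter's minimum through intravascular libraries, and was also called without the filter (limma adjusted p = 0.0229 by sequence and 0.0311 by clonotype). The median log2 difference over the 15 pairs by sequence was -1.66, with 13 of 15 below 0, and over the 27 tested by clonotype -0.37. Centred on the median of each library, the pair's difference was -2.50 (limma adjusted p = 0.0934), and by clonotype -2.43 (limma adjusted p = 0.0111).

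The share of Ighj3 within Ighv3-1 was lower in every extravascular library than in its partner. Ighj3 made up 105 of 1813 Ighv3-1 sequences extravascularly and 411 of 730 intravascularly, 228 of the latter from the large clonotype of mouse 6. Counted by clonotype, it was in 22 of 222 (9.91%) extravascular and 120 of 301 (39.9%) intravascular Ighv3-1 clonotypes. The share per library was 0 to 29.2% extravascularly and 25.0% to 73.5% intravascularly, lower extravascularly in 6 of 6 mice, with a mean difference of -28.1 ± 11.0 percentage points. With clonotypes 1 nucleotide apart merged, only 47 Ighv3-1 clonotypes remained in the extravascular libraries, 3 to 16 per mouse, and the difference was -14.1 ± 12.9 points, lower in 6 of 6 mice. Among all other V segments the Ighj3 share by clonotype was 14.0% ± 6.05 extravascularly and 18.0% ± 3.60 intravascularly, lower in 4 of 6 mice, and -0.42 points apart after merging. Single segments differed. Over all mice and before merging, Ighj3 was in 2 of 258 extravascular and 15 of 54 intravascular Ighv12-3 clonotypes. For Ighv3-6 it was in 30 of 167 and 64 of 263. Ighv1s22 went the other way, with 15 of 99 and 13 of 143. These within-V shares were examined after the V-J calls were known and are given without a test.

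**Figure D3:**
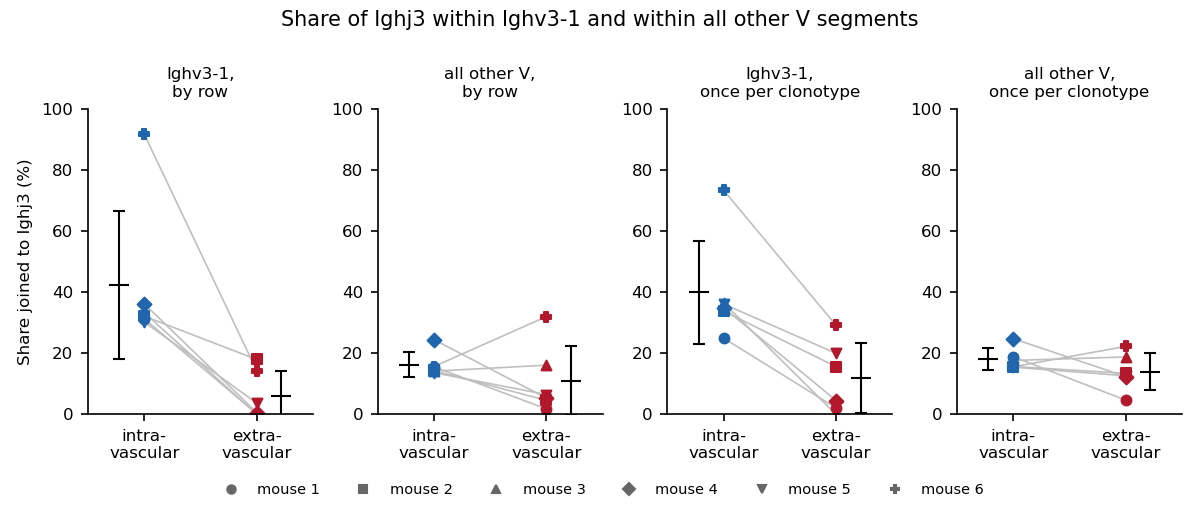
Share of sequences or clonotypes joined to Ighj3 (percent) among those with Ighv3-1 and among those with any other V segment, in 6 intravascular (blue) and 6 extravascular (red) PBS libraries. Grey lines join the libraries of a mouse and black bars are the mean and SD, drawn down to 0; the mean within Ighv3-1 by clonotype was 40.0% intravascularly and 11.9% extravascularly, against 18.0% and 14.0% for other V segments.

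Intravascular Ighv3-1/Ighj3 clonotypes were diverse, and a single junction recurred among the 120. Most used a D segment of the Ighd2 family (66.9% of those with an assigned D), against 29.0% of intravascular Ighv3-1 clonotypes with another J and 41.7% of intravascular Ighj3 clonotypes with another V. Without mouse 6 these shares were 55.4%, 30.1% and 40.9%, and with clonotypes 1 nucleotide apart merged 59.0%, 28.8% and 41.7%. Of the 22 extravascular Ighv3-1/Ighj3 clonotypes, 14 came from mouse 6 and 8 remained over all mice after merging of clonotypes 1 nucleotide apart, so their D segments and N lengths are not compared. Of the intravascular clonotypes, 36 came from mouse 6, and 8 of those remained after the same merging. The largest Ighv3-1/Ighj3 clonotypes of intravascular mice 1 to 5 are shown, since they carry the pair where no expanded clonotype does; they had between 2 and 9 sequences each.
Intravascular mouse 1, Ighd2-4: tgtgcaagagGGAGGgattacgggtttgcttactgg
Intravascular mouse 2, Ighd2-1: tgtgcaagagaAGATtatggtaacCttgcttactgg
Intravascular mouse 3, Ighd3-2: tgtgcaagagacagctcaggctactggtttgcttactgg
Intravascular mouse 4, Ighd1-1: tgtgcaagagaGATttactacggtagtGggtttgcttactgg
Intravascular mouse 5, Ighd2-1: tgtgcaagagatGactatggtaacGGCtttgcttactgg

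The B-1 pair Ighv11-2/Ighj1 and the pair Ighv1-53/Ighj2 passed the test by clonotype, both higher extravascularly, but only with the filter on low values. Pairs needed at least 5 clonotypes in at least 3 libraries, and limma called 3 of 27 (11.1%), 2 higher (7.41%) and 1, Ighv3-1/Ighj3, lower (3.7%), with 6 at an unadjusted p under 0.05 and 0 by the adjusted exact signed-rank test. As by sequence, the adjusted signed-rank test could hardly call a single pair. Ighv11-2/Ighj1 made up 1.69% to 7.38% of extravascular clonotypes and 0 to 1.79% of intravascular ones (log2 difference 1.88, SE 0.480, limma adjusted p = 0.0401, higher in 6 of 6 mice). Ighv1-53/Ighj2 made up 0.845% to 2.94% and 0 to 1.02% (log2 difference 1.79, SE 0.432, limma adjusted p = 0.0401, higher in 6 of 6 mice). Both pairs reached the filter's minimum through extravascular libraries, and without the filter both calls were lost (limma adjusted p = 0.0778 and 0.0577). Both calls were also sensitive to the mice. Ighv11-2/Ighj1 had adjusted p between 0.0653 and 0.128 (limma) without any of mice 1 to 5, and Ighv1-53/Ighj2 between 0.0653 and 0.128 without any of mice 2 to 5. With clonotypes 1 nucleotide apart merged, Ighv1-53/Ighj2 had too few clonotypes to be tested, and Ighv11-2/Ighj1 was called (2.09, limma adjusted p = 0.0130).

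By sequence, Ighv11-2/Ighj1 was also higher in 6 of 6 mice, 1.26% to 6.85% against 0 to 2.24%, but was not called (log2 difference 2.27, SE 1.02, limma adjusted p = 0.122). It was called after centring on the median (4.30, limma adjusted p = 0.00481), but by sequence too it reached the filter's minimum through extravascular libraries. Ighv12-3/Ighj1 was the most abundant extravascular pair, 33.0%, 13.1%, 24.04%, 27.8%, 0 and 1.05% of sequences in mice 1 to 6, against 0.219% to 4.42% intravascularly. Its extravascular share was high in mice 1 to 4 and not in mice 5 and 6, and it did not pass the threshold (log2 difference 2.00, SE 1.216, limma adjusted p = 0.195), though it did without mouse 5 (3.12, limma adjusted p = 0.0399). Over each mouse left out, its log2 difference ranged from 1.06 to 3.12. In extravascular mouse 5 the segment Ighv12-3 was instead joined to Ighj4 in the second largest clonotype, with 117 sequences. None of the remaining abundant pairs by sequence passed: joined to Ighv3-1, Ighj1, Ighj2 and Ighj4 had limma adjusted p of 0.122, 0.294 and 0.990, those of Ighv3-8 with the same J segments 0.122, 0.183 and 0.409, and Ighv3-6/Ighj2 0.383. Without mouse 5, Ighv3-1/Ighj1 (-3.47) and Ighv3-8/Ighj1 (-3.59) were called lower extravascularly (limma adjusted p = 0.0301 for each), and Ighv3-1/Ighj1 also without mouse 6 (-3.25, limma adjusted p = 0.0405). Ighv3-1/Ighj1 reached the filter's minimum through intravascular libraries, and with all mice it was not called without the filter. Over all mice Ighj1 was in 81.9% of 1904 extravascular and 50.5% of 103 intravascular Ighv12-3 sequences, and Ighj3 in 0.42% and 27.2%.

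Recurrent junction forms of these B-1 pairs were present in both compartments. Ighv11-2 was joined to Ighj1 in 332 of 332 extravascular and 29 of 30 intravascular sequences, and 86.4% and 75.9% of the Ighv11-2/Ighj1 sequences had no N nucleotide. By clonotype the order turned, with 50% of 64 and 63.2% of 19 clonotypes. A pair of junctions without N, which differ in their D segment, accounted for most Ighv11-2/Ighj1 sequences, not clonotypes, and recurred between mice.
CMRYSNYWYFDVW, Ighd2-5: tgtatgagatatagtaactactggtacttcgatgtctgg
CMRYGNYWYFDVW, Ighd2-1: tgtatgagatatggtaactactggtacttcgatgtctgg
The first had 122 sequences over all 6 extravascular libraries and 11 over 5 intravascular ones, and the other had 104 over 5 and 7 over 4. For Ighv12-3/Ighj1 the translated JUNCTION began with CAG, went on with any 3 residues and ended with GYWYFDVW in 1344 of 1560 extravascular sequences (86.2%) and 32 of 52 intravascular ones (61.5%). This holds the glycine that is known to recur in the CDR3 of phosphatidylcholine-binding Ighv12-3 antibodies. Counted by clonotype the order turned, 61 of 209 (29.2%) against 12 of 22 (54.5%), beside the larger number of extravascular clonotypes 1 nucleotide from another. Ighv12-3/Ighj1 had no N nucleotide in 46.3% of extravascular and 11.5% of intravascular sequences, and in 13.9% and 18.2% of clonotypes.

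D segment usage did not differ past the threshold. Sequences of the Ighd2 family were the most common in both compartments, 49.6% ± 15.1 extravascularly and 45.6% ± 8.53 intravascularly, followed by Ighd1 with 23.8% ± 7.94 and 32.7% ± 5.44. None of the 6 families reached p = 0.05 by the exact signed-rank test, by sequence or by clonotype, with p from 0.15625 to 0.84375 by sequence. Single libraries set the mean of some families. Ighd6 was 29.8% in extravascular mouse 3, whose largest clonotype carried Ighd6-3, and 0.0471% to 0.423% in the other 5 extravascular libraries. Ighd4 was 16.6% in extravascular mouse 6 and 1.75% to 5.14% in the other 5. Ighd3 was also widely spread, from 2.20% to 36.1% in extravascular mouse 5. Its extravascular median of 14.4% lay near its mean of 15.4%, so a single library did not set that mean. Limma called 0 of 14 D segments by sequence (0%) and 0 of 17 by clonotype (0%), with 0 and 1 at an unadjusted p under 0.05. The exact signed-rank test per segment called 0 after adjustment. It could hardly call a single segment, since most segments tested would need the smallest p that 6 mice can give.

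Among single D segments by sequence, Ighd1-1 was the most used, 21.9% ± 7.32 extravascularly and 30.1% ± 5.55 intravascularly (log2 difference -0.51, SE 0.587, limma adjusted p = 0.585). Ighd2-3 was 17.8% ± 11.0 and 9.23% ± 2.51 (log2 difference 0.62, SE 0.627, limma adjusted p = 0.585). Ighd2-4 was 4.02% ± 3.60 and 8.83% ± 2.84, lower extravascularly in 5 of 6 mice (log2 difference -1.59, SE 0.769, limma adjusted p = 0.456). The remaining 5 of the 8 most used, Ighd2-1, Ighd2-5, Ighd3-2, Ighd3-3 and Ighd4-1, had extravascular means of 4.72% to 7.34% and intravascular means of 3.66% to 12.2%. D segments are short and trimmed, and 12 of the 23 names in the tables, with 28.8% of sequences that have a D, are not in the C57BL/6J annotation used here, so assignments between similar D segments are uncertain.

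Each of 3 measures by sequence pointed to fewer N nucleotides extravascularly in 5 of 6 mice, with a different mouse as the exception for each. By sequence, mean N1 length was 0.571 to 3.12 nucleotides extravascularly (median 1.87) and 2.77 to 3.16 intravascularly (median 3.09), a difference of -1.21 ± 0.776 (exact signed-rank p = 0.0625). Mean N2 length was 0.605 to 2.45 (median 1.69) and 1.98 to 3.17 (median 2.20), a difference of -0.69 ± 0.770 (exact p = 0.09375), which was -0.45 without mouse 1. Sequences with neither N1 nor N2 made up 62.0%, 22.3%, 10.9%, 37.4%, 24.5% and 8.22% in extravascular mice 1 to 6 and 9.67%, 5.41%, 11.4%, 9.93%, 6.59% and 2.64% in intravascular mice 1 to 6. The difference was 19.9 ± 18.7 points (exact signed-rank p = 0.0625, higher in 5 of 6 mice). It was largest in mouse 1, whose 3 leading extravascular clonotypes had no N nucleotide, and slightly negative in mouse 3. None of these 3 passed the threshold. Without the largest clonotype of each library the difference in N-free sequences was 15.7 points and higher in 6 of 6 mice (exact p = 0.03125), and without Ighv11-2 and Ighv12-3 it was 12.8 points (exact p = 0.3125).

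By clonotype, mean N1 length and the N-free share were closer between compartments. N1 length was 2.86 ± 0.607 and 3.24 ± 0.180 nucleotides (difference -0.38, exact signed-rank p = 0.3125, and -0.21 without mouse 1). The N-free share was 10.5% ± 5.31 and 6.33% ± 1.53 (difference 4.17 points, exact p = 0.09375, higher in 5 of 6 mice). The N2 difference was 0.37 nucleotides (exact p = 0.15625), 0.18 without mouse 3, and -0.10 with clonotypes 1 nucleotide apart merged. N2 regions of 7 or more nucleotides were in 13.4% ± 4.73 of extravascular and 6.49% ± 1.21 of intravascular clonotypes, higher in 6 of 6 mice. N2 regions of 4 to 6 were in 13.4% ± 2.11 and 20.1% ± 3.46, lower in 6 of 6 mice. These length classes were not tested. They were also not computed with the merging that turned the mean N2 difference. The retained D stretch by sequence was 8.06 to 9.77 nucleotides extravascularly and 9.88 to 10.8 intravascularly, shorter in 6 of 6 mice and also not tested. By clonotype it was 10.4 ± 0.363 and 10.7 ± 0.377, with overlapping groups, and shorter in 4 of 6 mice.

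**Figure D4:**
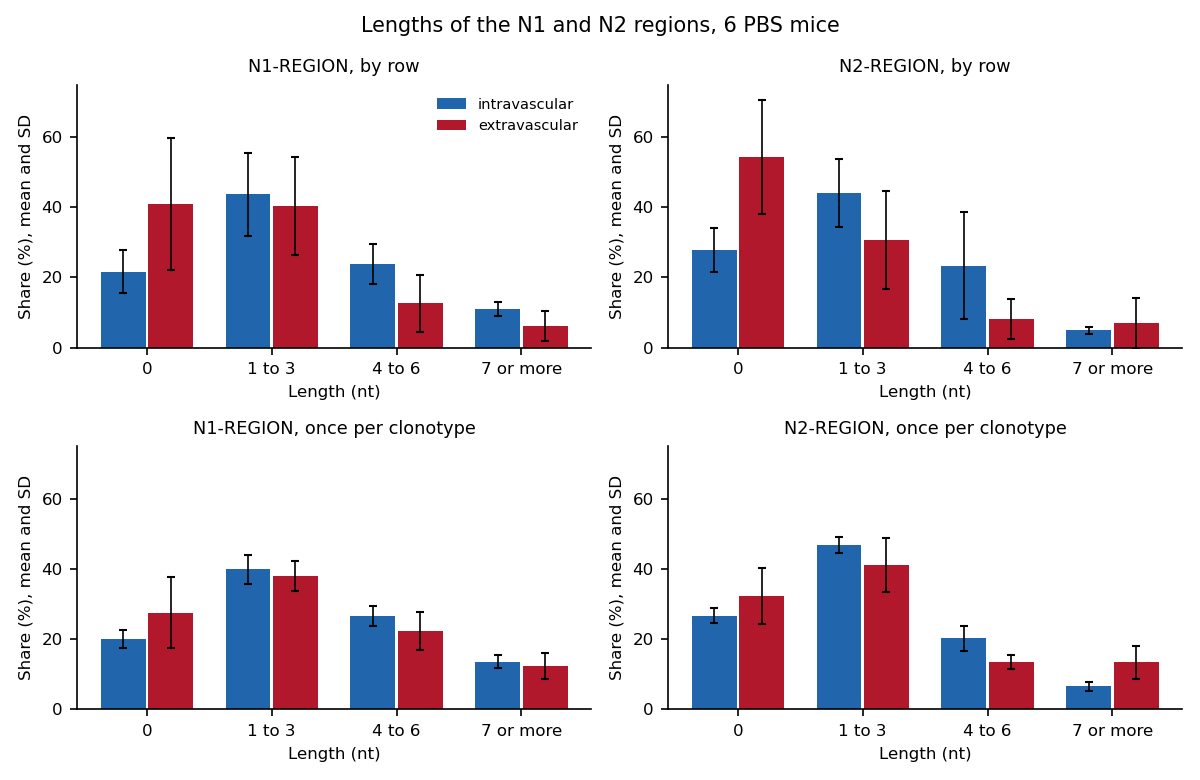
Share (percent) of sequences (top, labelled by row) and clonotypes (bottom) with an N1 or N2 region of 0, 1 to 3, 4 to 6, or 7 or more nucleotides, in intravascular (blue) and extravascular (red) PBS libraries. Bars are means of 6 libraries and lines the SD; by sequence, 41.0% of extravascular and 21.6% of intravascular sequences had no N1, and 54.3% and 27.7% had no N2.

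Mean JUNCTION length did not pass the threshold. By sequence it was 39.2 to 42.2 nucleotides extravascularly and 41.1 to 41.9 intravascularly, a difference of -0.82 ± 1.222 (exact signed-rank p = 0.21875), which was -0.48 without mouse 3 and -0.54 without mouse 1. By clonotype the means were 41.5 ± 0.726 and 42.1 ± 0.522, a difference of -0.62 ± 0.591 (exact p = 0.09375, shorter in 5 of 6 mice). The distributions had different peaks. Junctions of 42 nucleotides, the length of the recurrent Ighv12-3/Ighj1 form, accounted for 28.4% ± 13.1 extravascularly and 15.9% ± 5.74 intravascularly, higher in 6 of 6 mice, and those of 39 nucleotides 19.1% ± 10.4 and 25.1% ± 13.5, with 51.4% in intravascular mouse 6, whose large clonotype has this length. By clonotype the share at 42 nucleotides was 23.0% ± 11.3 and 16.1% ± 2.75, higher in 4 of 6 mice. Single lengths were not tested.

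**Figure D5:**
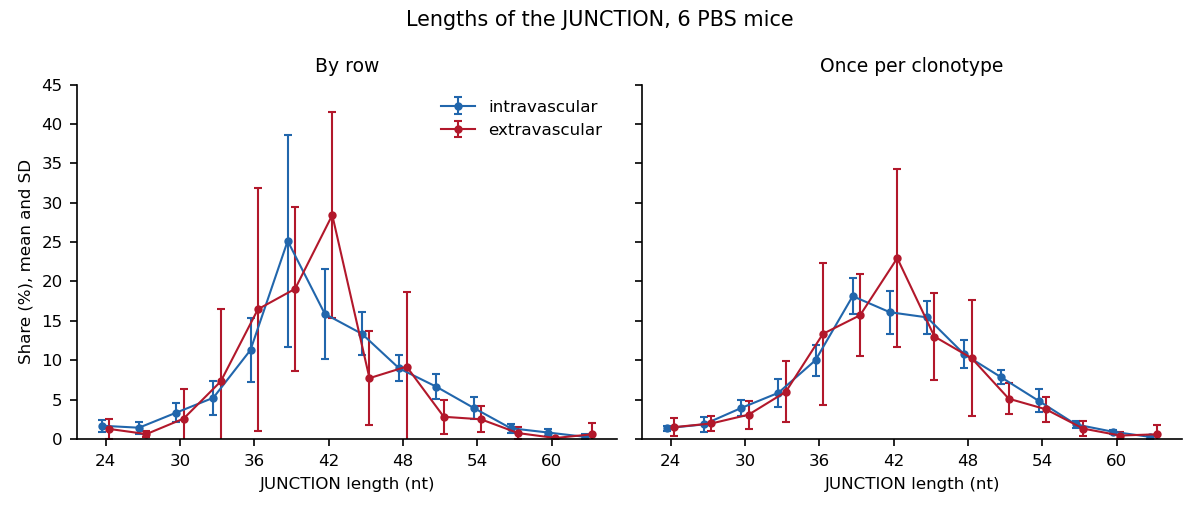
Share (percent) of sequences (left, labelled by row) and clonotypes (right) at each in-frame JUNCTION length from 24 to 63 nucleotides, intravascular (blue) and extravascular (red), as mean and SD over 6 PBS libraries. Extravascular libraries peaked at 42 nucleotides with 28.4% by sequence and intravascular libraries at 39 with 25.1%; SD bars that would pass 0 end at the axis.

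The amino acids of CDR3 showed no call. Limma called 0 of 20 amino acids by sequence (0%) and 0 of 20 by clonotype (0%), with 3 at an unadjusted p under 0.05 in each. The exact signed-rank test per residue called 0 after adjustment, but could hardly call a single residue with 6 mice. Tyrosine, the most common residue of antibody CDR3, made up 21.7% ± 3.17 of extravascular and 20.6% ± 0.935 of intravascular residues by sequence (limma adjusted p = 0.866). Aspartate made up 14.6% ± 1.91 and 11.2% ± 2.18 and was higher in 6 of 6 mice (log2 difference 0.40, SE 0.179, limma adjusted p = 0.289). Glycine made up 11.2% ± 1.82 and 9.95% ± 1.92, and arginine, a positively charged residue, 8.00% ± 2.23 and 8.95% ± 1.28 (limma adjusted p = 0.609 for each). Leucine, chosen after its values were seen because it came closest to the threshold, made up 1.35% ± 0.844 and 3.07% ± 1.38 and was lower in 6 of 6 mice (log2 difference -1.35, SE 0.304, limma adjusted p = 0.0614).

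Mean CDR3 hydropathy on the Kyte-Doolittle scale, where higher is more hydrophobic, was -0.93 to -0.61 by sequence in extravascular libraries. Intravascular mice 1 to 5 lay between -0.77 and -0.67 and mouse 6 at -0.14. The difference was -0.16 ± 0.263 by sequence (exact signed-rank p = 0.21875) and -0.04 ± 0.105 by clonotype (exact p = 0.3125), lower extravascularly in 5 of 6 mice each. By sequence it was -0.06 without mouse 6, and by clonotype it ranged from -0.080 to -0.020 over each mouse left out.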

How the data were processed

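The deposited tables list retained Igh sequences, and their other values, all from IMGT/V-QUEST, are gene names, nucleotide sequences and lengths that the authors did not normalize. The authors filtered reads by quality, merged pairs by their overlap, took consensus by barcode, filtered by BLAST similarity to V and J genes and dropped sequences of a single read. Reads per sequence were taken from whole numbers in the identifiers. First gene names were used, without allele; 3.01% of sequences had an ambiguous V. Sequences without D (2.56%; 140 of the 280 from a clonotype of extravascular mouse 3) were left out of D and N values. Python 3.11.15, pandas 2.3.3 and scipy 1.17.1 gave exact two-sided signed-rank tests over mice, and limma 3.58.1 (R 4.3.3) tested log2 shares with a prior of 0.5 sequences scaled to library size and mouse as a block. The limma model was also run on simulated data with independent noise, in which most shares were left unchanged. That setting did not cover the shift of most V-J pairs by sequence. Named were all J segments and D families, the 8 most abundant D segments, the 8 most abundant V-J pairs of each compartment, all called features (of V-J pairs at most 10), 4 amino acids, the largest clonotype of each library and the 3 largest extravascular ones. Members and lists were chosen with earlier results of these data known. The numbers pair the samples because both libraries come from the same mouse, as the study's matched-pairs test also took them; deviations of the 15 V-J pairs by sequence correlated between compartments at -0.22 to 0.26 over the 6 mice. Intervals cover counting error only. Alternatives were other weights, merges, filters, tests and each mouse left out.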

Additional observations from a re-analysis of the deposited data

Results flagged for a closer look

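Of 72 groups of 6 libraries, 13 held a library whose gap to its nearest neighbour was large against the group's range by Dixon's criterion, where chance gives about 1 in 20, or 3.6. Of these, 8 were the intravascular library of mouse 6. In it the Ighj3 share by sequence was 52.0%, mean CDR3 hydropathy by sequence -0.14, the largest clonotype and the clonotypes of 20 or more sequences 37.3% each, and the probability that 2 sequences share a clonotype 14.1%. It also had 164.5 unique clonotypes at equal depth, an Ighd1 share of 21.9% and an Ighd2 share of 62.8% by sequence.

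In extravascular mouse 3 the Ighd6 share was 29.8% by sequence and 10.1% by clonotype. In extravascular mouse 6 the Ighd4 share by sequence was 16.6%. In intravascular mouse 2 clonotypes ranked 2 to 10 held 7.23% of sequences, and the Ighd4 share by clonotype was 14.4%.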

How the results depend on the processing

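Rank size results kept their direction and their side of the threshold under every alternative with all 6 mice. With 5 mice the exact signed-rank test cannot pass 0.05, so leaving out a mouse was judged by the size of the value. The Ighj3 difference was weaker without the largest clonotypes (-9.86 points by sequence) and with clonotypes 1 nucleotide apart merged (-2.70 points by clonotype), and the latter turned the N2 difference by clonotype to -0.10, the Ighd1 difference by clonotype to 0.74 and gave 5 V-J calls by clonotype. These were Ighv11-2/Ighj1, higher, and Ighv3-1/Ighj1, Ighv3-1/Ighj3, Ighv3-8/Ighj1 and Ighv3-8/Ighj2, lower, while Ighv1-53/Ighj2 was not among the 23 pairs tested. After merging, Ighv3-1/Ighj1 and Ighv3-1/Ighj3 had 8 extravascular clonotypes each, against 48 and 85 intravascular ones. They reached the filter's minimum through intravascular libraries. Without Ighv11-2 and Ighv12-3 the Ighj1 difference turned to -2.89 by sequence and -4.03 by clonotype, and Ighd2 by sequence to -3.22. Without the largest clonotypes Ighj2 by sequence turned to -4.21 and Ighd6 to -0.82, 1 D family (Ighd4, -3.38) passed, and the N-free share (15.7) passed. Ighj4 by sequence turned to -0.23 with sequences 1 nucleotide apart merged and to -1.09 weighted by reads. Ighd3 by clonotype turned to 0.28 with sequences of 3 or more reads and 0.66 without ambiguous names. JUNCTION length by clonotype passed without ambiguous names (-0.64). N1 length by sequence passed with 3 or more reads (-1.33) and weighted by reads (-1.21). The N-free share by sequence passed with sequences 1 nucleotide apart merged (18.3) and with palindromic nucleotides counted as N (19.9). The causes of these changes were not tested.

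Without the pairing of libraries by mouse (exact Mann-Whitney test), N1 length (-1.21), N2 length (-0.69) and the N-free share (19.9) by sequence passed the threshold, as did 1 D family, Ighd1 (-8.92), and in limma Ighv11-2/Ighj1 by clonotype lost its call (1.88, adjusted p = 0.0510) and Ighv3-1/Ighj1 by clonotype gained one (-1.98, adjusted p = 0.0481). By clonotype, Ighv3-1/Ighj1 reached the filter's minimum through intravascular libraries. With the pairing kept, it was not called without the filter. Leaving out the pairing changed no other call.

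V-J calls by sequence were 5 without a filter (of 207 pairs), 9 weighted by reads (of 56) and 0 by the signed-rank test per pair with adjustment. By clonotype they were 1 without a filter, Ighv3-1/Ighj3, and 0 by that test. The signed-rank test per pair could hardly call a single pair with 6 mice. Weighting by reads called 1 amino acid.

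Leaving out each mouse gave ranges of 1 to 5 V-J calls by sequence (5 without mouse 5 and 4 without mouse 6), 0 to 6 by clonotype (0 without mouse 4, 1 without mouse 2, 3 or 5, and 6 without mouse 6) and 0 to 1 amino acid calls by sequence (1 without mouse 3). It gave -1.94 to 7.29 for Ighj2 and -1.88 to 4.19 for Ighj4 by sequence, and -1.70 to 2.55 and -1.13 to 2.85 by clonotype. Ighd2 ranged from -0.55 to 10.1 by sequence and -0.074 to 6.23 by clonotype, Ighd6 from -1.88 to 3.91 and -0.88 to 1.35, and Ighd3 by clonotype from -1.22 to 1.27. Depth limits rare pairs: in intravascular libraries of 344 to 611 sequences a count of 0 allows a share of up to 0.491% to 0.872%.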
